A study of Homo sapiens with 8 samples.

Results

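The genes described are those of the cytosolic ribosomal proteins, taken as every gene symbol in the deposited table that begins with RPL or RPS and a digit, or with RPLP. Symbols of the S6 kinases and symbols with a pseudogene ending were set aside. This gave 59 genes, 35 of the large and 24 of the small subunit, among 14645 loci, and each was listed once. They include 4 paralogs, RPL22L1, RPL36AL, RPL39L and RPS27L. Of 76 standard symbols of cytosolic ribosomal protein genes 55 were among them, 32 of 46 for the large and 23 of 30 for the small subunit. The remaining 21, such as RPLP0, RPS6 and RPL41, matched no symbol in the deposited table and so are not analysed here. The 59 genes lie on 19 chromosomes, with 12 of them on chromosome 19.

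Ribosomal proteins are made in near-equal amounts because each ribosome takes a single copy of nearly every one. Their mRNAs are among the most abundant of a cell and usually begin with a run of pyrimidines at the cap, the terminal oligopyrimidine or TOP motif, through which mTORC1 and the LARP1 protein set their translation and stability. When ribosome assembly falters, free RPL5 and RPL11 bind the ubiquitin ligase MDM2 as part of the 5S ribonucleoprotein and so stabilise p53.

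The RNA came from MCF10A, an established line of non-tumorigenic human breast epithelial cells grown with EGF and insulin. Total RNA was depleted of ribosomal RNA and sequenced from 8 libraries, 2 per group. The groups were the solvent DMSO, the ATR kinase inhibitor AZD6738 at 250 nM, ionizing radiation (IR) of 20 Gy, and AZD6738 with IR (AZD6738+IR). Drug or solvent was given 2 hours before irradiation and kept on the cells for 3 days, so the IR group also received the solvent. Nothing in the labels ties the libraries of a group to separate cultures, so the p-values weigh differences only against library spread, which may be technical. Levels were taken as FPKM, fragments corrected for transcript length and for the size of the library, though the deposited table names no unit. Depth is unknown because no counts were given. Of 11 breast epithelial markers 8 were in the table, and their summed level was 1891 to 1907 FPKM with DMSO, 2083 to 2115 with AZD6738, 2646 to 2663 after IR and 4166 to 4451 with AZD6738+IR. KRT17 made up most of this rise, from 1165 and 1137 FPKM with DMSO to 3360 and 3112 with AZD6738+IR, while TP63, EPCAM, EGFR and ITGA6 were lower with AZD6738+IR than with DMSO in both libraries. Of 7 fibroblast markers only DCN was listed, at 1.65 to 4.55 FPKM, of 6 blood markers CD14 and CSF1R summed to 13.5 to 17.8 FPKM, and none of 3 endothelial markers was found. What part these markers play in the results was not tested.

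The 5′ ends of these genes are shown first because a pyrimidine start was far more frequent among the members than among other genes. RefSeq (GRCh38.p14) gave promoter windows for 47 of the 59 genes. At the annotated first base 34 of the 47, or 72.3%, had a C followed by at least 4 more pyrimidines, against 5.03% of 27258 other gene symbols. The 10 windows below hold 25 bases before the annotated start and the first 25 bases from it, 5′ to 3′ on the strand of the gene, and the unbroken pyrimidine run that opens at the start is in capitals. RPL3, RPS3A, RPL12 and RPS3 stand for genes with large falls, RPS19, RPL38 and RPL36AL for genes with small falls, and RPL22L1, RPS27 and RPS27L for the paralogs. The windows were picked and are not the largest falls in order. RPL10A, RPL4, RPS7 and RPL21 fell more than RPL12 with AZD6738+IR and are not printed. Their runs were 0, 0, 3 and 6, with 0 standing for a first base other than C.

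RPL3, chr22:39319599-39319648, strand −: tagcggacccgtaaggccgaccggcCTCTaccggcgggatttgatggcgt

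RPS3A, chr4:151099603-151099652, strand +: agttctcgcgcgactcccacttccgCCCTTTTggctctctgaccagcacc

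RPL12, chr9:127451382-127451431, strand −: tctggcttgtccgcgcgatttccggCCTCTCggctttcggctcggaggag

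RPS3, chr11:75399493-75399542, strand +: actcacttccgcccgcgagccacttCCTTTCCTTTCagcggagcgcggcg

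RPS19, chr19:41860230-41860279, strand +: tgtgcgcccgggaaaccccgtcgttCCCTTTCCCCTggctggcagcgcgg

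RPL38, chr17:74203653-74203702, strand +: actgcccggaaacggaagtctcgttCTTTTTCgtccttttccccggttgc

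RPL36AL, chr14:49620602-49620651, strand −: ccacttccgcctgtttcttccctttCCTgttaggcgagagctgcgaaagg

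RPL22L1, chr3:170870171-170870220, strand −: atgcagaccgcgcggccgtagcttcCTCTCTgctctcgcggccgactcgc

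RPS27, chr1:153990737-153990786, strand +: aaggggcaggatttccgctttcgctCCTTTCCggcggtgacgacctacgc

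RPS27L, chr15:63157453-63157502, strand −: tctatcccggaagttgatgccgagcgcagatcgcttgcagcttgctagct

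RPS27L, which rose, had no C at its annotated start, whereas its paralog RPS27 began with a run of 7 pyrimidines. A first C was also absent in RPL4, RPL10A, RPL19, RPL27, RPS4X, RPS26, RPS28 and RPS29, all of which fell with AZD6738+IR. RPL3, with the second largest fall, had a run of 4, shorter than the 5 counted here, and RPS19, which fell little, had one of 11. The 34 genes with a run of at least 5 had a median log2 fold change of -0.85 with AZD6738+IR against DMSO, and the 13 without one also had a median of -0.85. Annotated starts were not measured in these libraries.

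IR lowered most of these mRNAs by a modest amount, and AZD6738+IR lowered nearly all of them to a greater degree. Their summed level was 51281 and 52970 FPKM with DMSO, 50599 and 51459 with AZD6738, 42843 and 43196 after IR and 28858 and 28643 with AZD6738+IR. The IR libraries lay below all 4 unirradiated libraries, and the AZD6738+IR libraries lay below those of IR. As a share of all FPKM outside the 4 most abundant loci, the members took 12.6% to 13.1% in the unirradiated libraries, 11.0% in both IR libraries and 7.61% and 7.66% with AZD6738+IR. These 4 loci held 53.3% to 54.1% of all FPKM without irradiation, 56.5% and 56.7% after IR, and 57.1% and 61.4% with AZD6738+IR, where library B stood apart. Without AZD6738+IR B the median log2 fold change of the members against DMSO was -0.87, against -0.85 with it. The median over all loci was -0.14 without this library and -0.16 with it. Bulk RNA cannot tell fewer cells of a type from less RNA per cell.

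Large and small subunit genes fell nearly in step. The large subunit summed to 1.96 times the small subunit in both DMSO libraries, 1.95 with AZD6738, 1.94 after IR and 1.88 in both AZD6738+IR libraries. The ratio with AZD6738+IR lay below that of every other library. Taken gene by gene, the order of the subunits depended on the measure. The log2 fold change with AZD6738+IR against DMSO had a median of -0.83 for large and -0.87 for small subunit genes, and a mean of -0.95 and -0.81.

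**Figure D1:**
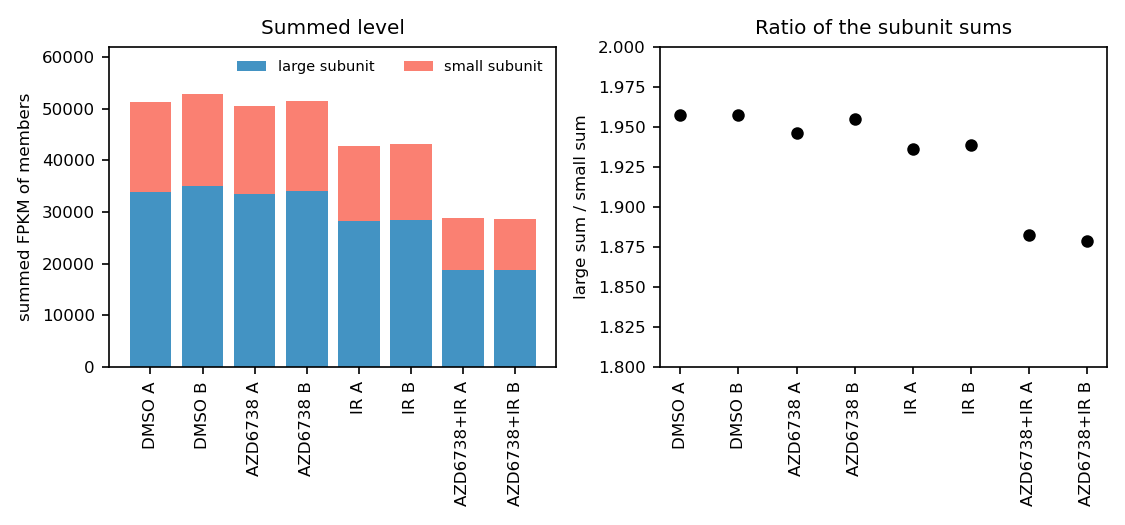
Summed FPKM of the 59 genes in each of the 8 libraries, stacked by subunit (left), and the ratio of the large to the small subunit sum (right, axis cropped to 1.8 to 2.0). The sums drop from 51281 and 52970 with DMSO to 28858 and 28643 with AZD6738+IR, and the ratio from 1.96 to 1.88.

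AZD6738 without irradiation left these genes close to DMSO. None of the 59 was called at an adjusted p under 0.05 (limma, two-sided, Benjamini-Hochberg over all 12809 loci tested), 3 had an unadjusted p under 0.05, and over all loci 0.0546% were called lower and 0.0937% higher. The median log2 fold change was -0.03 (-0.05 without DMSO A and -0.0063 without DMSO B), and the range ran from -0.92 for RPS26 to 0.58 for RPL22L1. In 23 genes both AZD6738 libraries lay below both DMSO libraries and in 2 above, and in 34 the groups overlapped, where 25.9% and 24.3% of all loci lay wholly below and above.

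RPS26, a small subunit protein at the mRNA exit channel, had the lowest fold change with AZD6738. It stood at 118 and 120.1 FPKM with DMSO, 59.8 and 65.8 with AZD6738, 111 and 101 after IR and 88.9 and 48.5 with AZD6738+IR. The AZD6738 libraries were at 0.527 of the DMSO mean with no overlap, and the AZD6738+IR libraries lay below DMSO, with 1 above and 1 below the AZD6738 values. The adjusted p was 0.24 with a 95% confidence interval of -1.56 to -0.27 on the log2 scale, and of the 18 alternatives tried only those without AZD6738+IR A or without AZD6738+IR B called it. The pseudogene RPS26P11 is a near copy whose row stood at 60.7 and 62.3 FPKM with AZD6738 against 62.6 and 67.2 with DMSO, and the sources used here do not say how reads were shared between such copies.

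After IR 42 of the 59 genes, or 71.2%, fell, 1 rose and 16 were not called, against 38.0% of all loci called lower and 23.7% higher. The median log2 fold change was -0.27, against -0.10 over all 12809 loci. Of 468 other loci that averaged 100 FPKM or more, 42.5% fell, whereas 37 of the 50 members that abundant did. Of the large subunit 26 of 35 genes fell, and of the small subunit 16 of 24 fell and RPS27L rose. The largest falls were those of RPL22L1, RPL39L, RPS9, RPL3, RPL5 and RPL12.

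With AZD6738+IR against DMSO 57 genes, or 96.6%, fell and 1 rose, where 45.6% of all loci were called lower and 27.1% higher. The median was -0.85 against -0.16 over all loci, and 54.7% of the 468 other abundant loci fell against 49 of the 50 abundant members. RPL39 alone was not called, with an adjusted p of 0.072. It was called without AZD6738 A, without AZD6738 B, when only the compared groups were fitted and when library letters entered as a block. In terms of FPKM the median member stood at 0.553 of its DMSO level, with the lowest at 0.124 (RPL22L1) the highest at 1.75 (RPS27L) and an interquartile range of 0.454 to 0.649.

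Adding AZD6738 to IR lowered 51 members below IR alone and raised 1, against 31.5% and 19.6% of all loci, with a median of -0.58, which was -0.38 after quantile normalization. Of the 468 other loci that averaged 100 FPKM or more 51.5% fell, against 46 of the 50 members that abundant. Against AZD6738 alone 53 members fell and 1 rose, against 45.2% and 27.1% of all loci, with a median of -0.83. Of the same 468 loci 54.9% fell, against 47 of the 50 abundant members. Both IR libraries lay below both DMSO libraries in 52 members (50.3% of all loci), both AZD6738+IR libraries below DMSO in 58 (52.7%) and below IR in 57 (45.9%). These comparisons share libraries with those above, so their counts are not separate evidence. In 51 of the 59 genes both IR libraries lay below both DMSO libraries and both AZD6738+IR libraries below both IR libraries, an order found in 28.4% of all loci.

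The interaction asks whether the change with AZD6738+IR differs from the sum of the changes with AZD6738 and with IR on the log2 scale. It was below 0 and called in 46 genes, 28 of the large and 18 of the small subunit, and above 0 and called in none, against 22.4% and 13.1% of all loci. Its median was -0.56, against -0.06 over all loci, and was -0.37 after quantile normalization. Of the 468 other loci that averaged 100 FPKM or more 41.7% were called lower (median -0.21), against 43 of the 50 members that abundant. The 13 members not called were RPL21, RPL28, RPL36, RPL36AL, RPL38, RPL39, RPL39L, RPS9, RPS15, RPS19, RPS26, RPS27L and RPS28, of which 3 had an unadjusted p under 0.05.

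**Figure D2:**
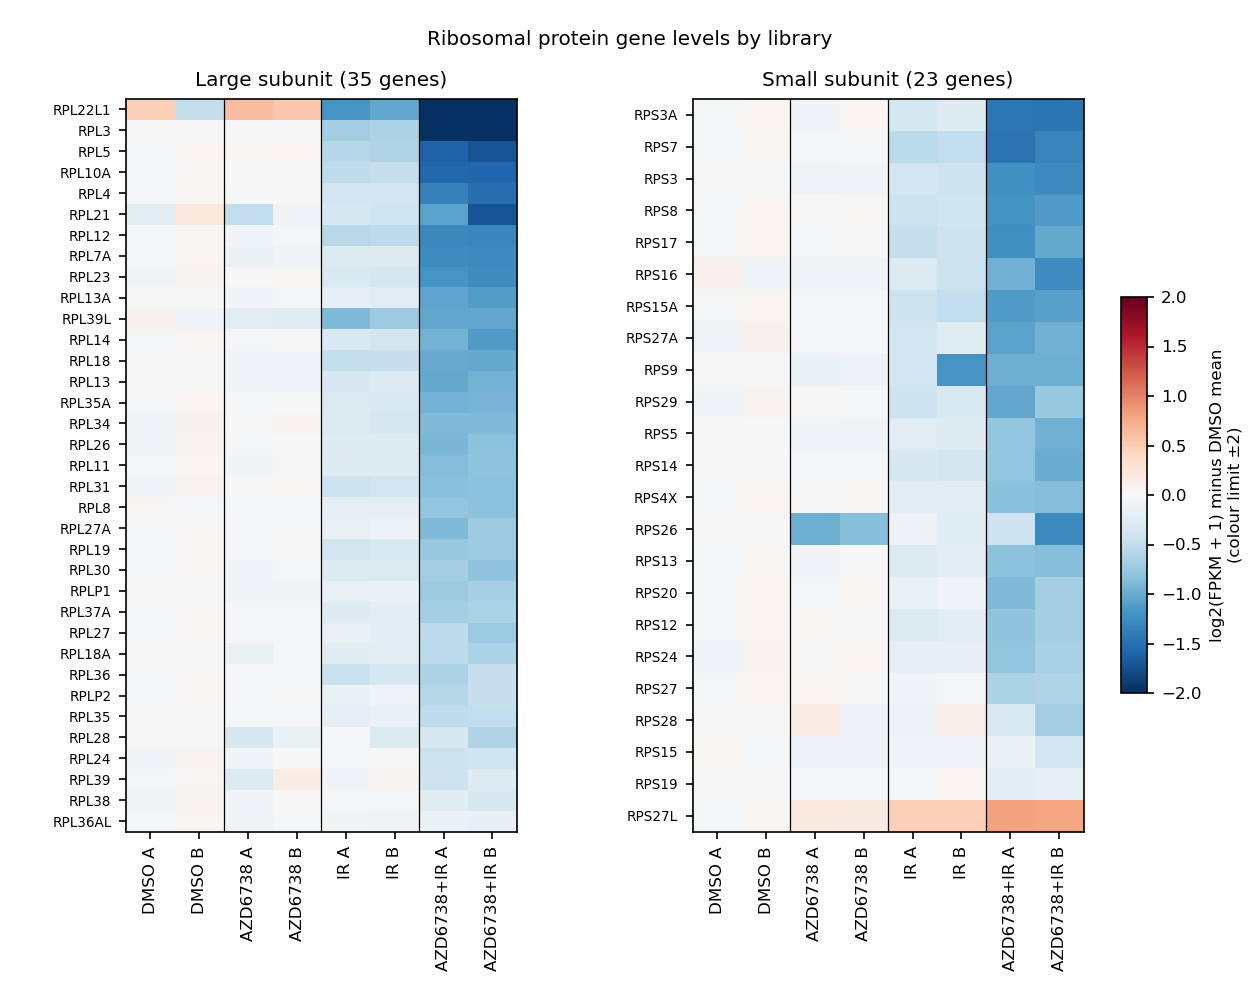
Level of 58 of the 59 genes in each library as log2(FPKM + 1) minus the mean of the DMSO libraries, large subunit left and small subunit right, sorted by the change with AZD6738+IR (colours stop at ±2). The AZD6738 columns are near white except for RPS26, RPL22L1 and a few others, and the IR columns are mostly pale. The AZD6738+IR columns are darker than those of IR in most rows, but still pale in rows such as RPS19, RPL38 and RPL36AL. The row of RPS27L has the opposite colour.

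**Figure D3:**
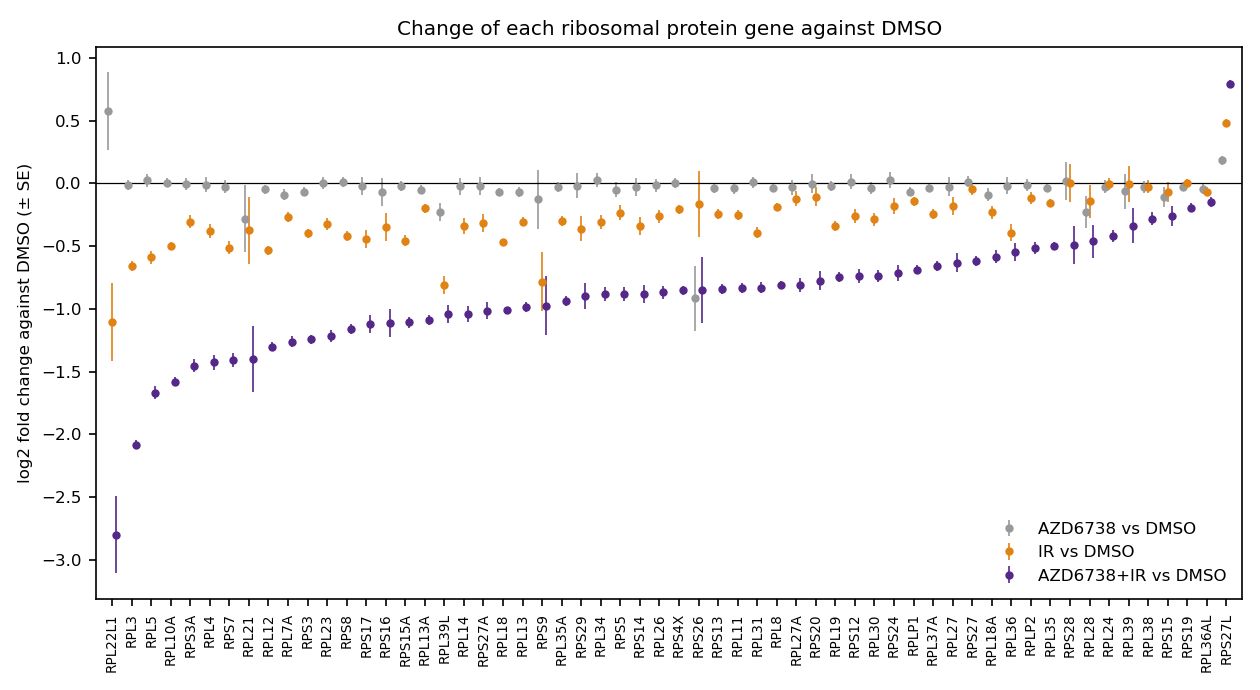
The log2 fold change against DMSO of 58 of the 59 genes with its standard error, for AZD6738 (grey), IR (orange) and AZD6738+IR (purple), sorted by the last. The purple points spread from -2.80 for RPL22L1 to 0.79 for RPS27L, while the orange points run from -1.11 to 0.48.

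Among the proteins at the core of the large subunit, RPL3 changed most. RPL3 (chr22:39312882-39319623, GRCh38.p14) reaches towards the peptidyl transferase centre. Its level was 936 and 945 FPKM with DMSO, 927 and 936 with AZD6738, 583 and 608 after IR and 226 and 217 with AZD6738+IR. The DMSO and AZD6738 libraries overlapped, and the IR and AZD6738+IR libraries formed separate lower steps. The log2 fold change was -0.66 ± 0.04 (SE, n = 2 per group) with IR and -2.08 ± 0.04 with AZD6738+IR (limma adjusted p = 5.8e-05 and 6.9e-07), and the interaction was -1.41 ± 0.05 (limma adjusted p = 4.8e-05).

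RPL4 (chr15:66498015-66504855), which lines the exit tunnel for the nascent chain, stood at 1935 and 2025 FPKM with DMSO, 1958 and 1974 with AZD6738, 1524 and 1522 after IR and 776 and 697 with AZD6738+IR. RPL10A (chr6:35468401-35470780), the protein of the mobile L1 stalk, stood at 999 and 1035 FPKM with DMSO, 1028 and 1014 with AZD6738, 713 and 727 after IR and 341 and 337 with AZD6738+IR. In both genes the IR libraries lay below the unirradiated ones and the AZD6738+IR libraries below those of IR. The change with AZD6738+IR was -1.43 ± 0.06 for RPL4 and -1.58 ± 0.03 for RPL10A (limma adjusted p = 6.3e-06 and 1.1e-06), and their interactions were -1.04 and -1.09 (limma adjusted p = 6.1e-04 and 8.1e-05).

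RPL5 and RPL11, the protein pair of the 5S ribonucleoprotein that can bind MDM2, fell by different amounts. RPL5 (chr1:92831986-92841924) was at 1053 and 1112 FPKM with DMSO, 1094 and 1107 with AZD6738, 728 and 710.2 after IR and 353 and 326 with AZD6738+IR. RPL11 was at 2172 and 2276 FPKM with DMSO, 2149 and 2176 with AZD6738, 1863 and 1863 after IR and 1219.9 and 1276 with AZD6738+IR. Both formed the same 3 levels without overlap of IR, AZD6738+IR and the unirradiated groups, but the steps of RPL5 were larger, with log2 fold changes of -0.59 ± 0.05 and -1.67 ± 0.05 against -0.26 ± 0.04 and -0.83 ± 0.04. The ratio of RPL5 to RPL11 FPKM was 0.485 and 0.489 with DMSO, 0.509 and 0.509 with AZD6738, 0.391 and 0.381 after IR and 0.290 and 0.255 with AZD6738+IR, and the irradiated groups did not overlap with the others or with each other. The interaction was -1.11 (limma adjusted p = 3.6e-04) for RPL5 and -0.54 (limma adjusted p = 0.0016) for RPL11.

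The stalk that recruits elongation factors is made of RPLP1 and RPLP2 on a base that includes RPL12. RPL12 was at 1581 and 1641 FPKM with DMSO, 1543 and 1577 with AZD6738, 1099 and 1126 after IR and 657 and 648 with AZD6738+IR. RPLP1 was at 1881 and 1807 FPKM with DMSO, 1759 and 1759 with AZD6738, 1658 and 1679.7 after IR and 1129.8 and 1157 with AZD6738+IR. RPLP2 was at 965 and 999 FPKM with DMSO, 969 and 978 with AZD6738, 892 and 922 after IR and 662 and 714 with AZD6738+IR. In all 3 the IR libraries lay below the unirradiated ones and the AZD6738+IR libraries were lowest. RPL12 fell most, by 0.53 ± 0.04 with IR and 1.30 ± 0.04 with AZD6738+IR on the log2 scale, against 0.69 ± 0.04 for RPLP1 and 0.51 ± 0.05 for RPLP2 with AZD6738+IR. With IR alone RPLP1 changed by -0.14 (limma adjusted p = 0.015), a call lost without DMSO A, without IR A and without IR B, and RPLP2 by -0.11 (limma adjusted p = 0.082).

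RPL19, RPL11, RPS4X and RPLP1 were highly abundant members by their mean over all libraries. RPL19, which forms a bridge to the small subunit, was at 2292 and 2382 FPKM with DMSO, 2283 and 2317 with AZD6738, 1816 and 1882 after IR and 1376 and 1409 with AZD6738+IR. Its levels fell in the same order as those of RPL3, with no overlap, but by 0.75 ± 0.04 on the log2 scale with AZD6738+IR (limma adjusted p = 1.5e-05). RPS4X, the X-linked small subunit protein, changed by -0.85 ± 0.04 (limma adjusted p = 9.1e-06).

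Of the small subunit, RPS3A (chr4:151099628-151104642), which lies near the exit side of the mRNA channel, fell most. It was at 121 and 127 FPKM with DMSO, 119.9 and 127 with AZD6738, 97.5 and 103 after IR and 44.8 and 44.6 with AZD6738+IR. The IR libraries lay below the unirradiated ones and the AZD6738+IR libraries at 0.446 of the IR mean. The change was -0.30 ± 0.05 with IR and -1.45 ± 0.05 with AZD6738+IR, and the interaction was -1.14 ± 0.07 (limma adjusted p = 0.0026, 3.7e-06 and 2.7e-04). RPS3, at the mRNA entry channel, went from 483 and 484 FPKM with DMSO to 369 and 364 after IR and 209 and 199 with AZD6738+IR. RPS27A, which is translated as a fusion with ubiquitin, changed by -0.32 ± 0.07 and -1.01 ± 0.07 (limma adjusted p = 0.01 and 4.8e-05), the first call being lost without DMSO B and without IR A.

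RPS7 and RPL23, for which binding to MDM2 is also described, were among the larger falls. RPS7 was at 659 and 676 FPKM with DMSO, 655 and 655 with AZD6738, 459 and 476 after IR and 239 and 264 with AZD6738+IR. RPL23 was at 1399 and 1500.0 FPKM with DMSO, 1440.4 and 1468 with AZD6738, 1168 and 1145 after IR and 638 and 609 with AZD6738+IR. Both showed the order of RPS3A without overlap, with changes of -1.41 ± 0.05 and -1.22 ± 0.05 with AZD6738+IR (limma adjusted p = 5.4e-06 and 5.7e-06).

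RPS9, a small subunit protein that guards decoding accuracy in yeast, was a low row, at 7.27 and 7.40 FPKM with DMSO, 6.62 and 6.65 with AZD6738, 5.39 and 2.68 after IR and 3.25 and 3.23 with AZD6738+IR. One IR library was far below the other and lay under both AZD6738+IR values. Its change with IR was -0.78 ± 0.24 (limma adjusted p = 0.03), a call lost without any one of the DMSO, AZD6738 or AZD6738+IR libraries. RPL21, whose many processed copies include the listed RPL21P28, also varied within groups, at 200.1 and 270.4 FPKM with DMSO, 166 and 221 with AZD6738, 181 and 177 after IR and 110.3 and 69.2 with AZD6738+IR. Its change with AZD6738+IR was -1.40 ± 0.26 (limma adjusted p = 0.0037), and RPL21P28 dropped from 172 and 186 FPKM with DMSO to 109 and 99.9.

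A small set of members changed little. RPS19 (chr19:41860255-41872925), the small subunit protein mutated in many patients with Diamond-Blackfan anaemia, was at 851 and 845 FPKM with DMSO, 831 and 833 with AZD6738, 827 and 868 after IR and 733 and 752 with AZD6738+IR. RPL38, a small protein on the outside of the large subunit, was at 881 and 945 FPKM with DMSO, 879 and 909.9 with AZD6738, 896 and 896 after IR and 775 and 729 with AZD6738+IR. In both the IR libraries overlapped with DMSO or lay within its range, and the AZD6738+IR libraries lay below every other library. With AZD6738+IR RPS19 changed by -0.19 ± 0.04 and RPL38 by -0.28 ± 0.05 (limma adjusted p = 0.004 and 0.0032), but after quantile normalization of the libraries both turned to higher, by 0.22 and 0.12. The ratio of RPL3 to RPS19 FPKM thus went from 1.10 and 1.12 with DMSO to 0.704 and 0.701 after IR and 0.308 and 0.289 with AZD6738+IR.

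Other members showed a step with AZD6738+IR and no call with IR alone, or the reverse. RPL24, which bridges the subunits, was at 827 and 892 FPKM with DMSO, 824 and 865 with AZD6738, 845 and 865 after IR and 638 and 649 with AZD6738+IR. Its IR libraries lay within the DMSO range and its AZD6738+IR libraries below all others. It changed by -0.01 ± 0.05 with IR (limma adjusted p = 0.91) and by -0.42 ± 0.05 with AZD6738+IR (limma adjusted p = 4.6e-04), a call lost after quantile normalization, and its interaction was -0.38 ± 0.07 (limma adjusted p = 0.0089). RPL36, a protein of the large subunit surface, was at 989 and 1025 FPKM with DMSO, 995 and 993 with AZD6738, 741 and 794 after IR and 647 and 734 with AZD6738+IR. Here the irradiated groups nearly met, with -0.39 ± 0.07 for IR against DMSO and -0.15 ± 0.07 for AZD6738+IR against IR (limma adjusted p = 0.0039 and 0.11), and the interaction was -0.14 ± 0.10 (limma adjusted p = 0.33). RPS15, at the decoding side of the small subunit, changed by -0.26 ± 0.08 with AZD6738+IR (limma adjusted p = 0.026), a call lost under all 3 other scalings and without either DMSO library.

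The 4 paralogs went different ways. RPS27L (chr15:63148249-63157477), a p53-induced paralog of RPS27, was the only member that rose. It was at 39.2 and 40.7 FPKM with DMSO, 45.8 and 45.2 with AZD6738, 56.0 and 56.1 after IR and 70.3 and 69.6 with AZD6738+IR. Every step was upward with no overlap between groups, and the change was 0.48 ± 0.03 with IR, 0.79 ± 0.03 with AZD6738+IR and 0.32 ± 0.03 for AZD6738+IR over IR (limma adjusted p = 9.5e-05, 6.7e-06 and 6.8e-04). RPS27 itself was at 511 and 541 FPKM with DMSO, 539.5 and 523 with AZD6738, 507 and 510.2 after IR and 337 and 348 with AZD6738+IR. Its IR libraries lay just under those of DMSO, with a log2 change of -0.05 (limma adjusted p = 0.36), while both AZD6738+IR libraries lay below all others, with -0.62 ± 0.04 (limma adjusted p = 4.2e-05). RPS27L made up 7.13% and 6.99% of the summed FPKM of the pair with DMSO, 7.82% and 7.95% with AZD6738, 9.95% and 9.90% after IR and 17.3% and 16.7% with AZD6738+IR.

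RPL22L1 (chr3:170864875-170870195), the paralog of RPL22, fell most of all members. It was at 87.6 and 44.4 FPKM with DMSO, 95.9 and 91.4 with AZD6738, 27.0 and 29.9 after IR and 9.41 and 6.97 with AZD6738+IR. The DMSO libraries differed nearly 2-fold, yet both IR libraries lay below them and both AZD6738+IR libraries far below those of IR. The change was -1.11 ± 0.31 with IR (limma adjusted p = 0.023, a call lost without IR A and without IR B) and -2.80 ± 0.31 with AZD6738+IR (limma adjusted p = 3.5e-04), and the interaction was -2.27 ± 0.44 (limma adjusted p = 0.011).

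RPL39L, a paralog of the tunnel protein RPL39 known for its expression in testis, was low, at 5.74 and 5.13 FPKM with DMSO, 4.52 and 4.45 with AZD6738, 2.47 and 2.87 after IR and 2.13 and 2.12 with AZD6738+IR. Most of its fall was already present after IR (-0.81 ± 0.07, limma adjusted p = 2.2e-04), and its interaction was 0.00 ± 0.10. RPL39 was at 223 and 233 FPKM with DMSO, 188 and 252 with AZD6738, 219 and 235 after IR and 170.0 and 190.1 with AZD6738+IR, and its IR and DMSO libraries overlapped. RPL36AL, the paralog of RPL36A, was at 304 and 318 FPKM with DMSO, 296 and 306 with AZD6738, 299.5 and 295 after IR and 284 and 276 with AZD6738+IR. Its AZD6738+IR libraries were the lowest by a narrow margin. It had the smallest change of any member with AZD6738+IR, -0.15 ± 0.04 (limma adjusted p = 0.014), a call lost without DMSO B and under both other scalings tried, and after quantile normalization it turned to higher, by 0.10.

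**Figure D4:**
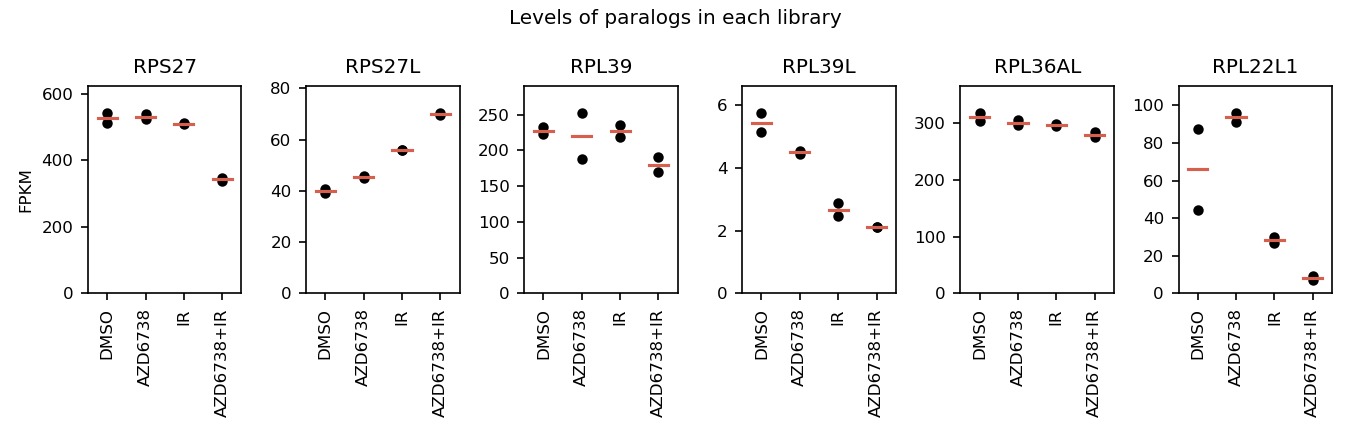
FPKM of RPS27, RPL39, 3 further paralogs and RPS27L in each library (black points) with the mean of each group (red bar), each panel on its own axis from 0. RPS27L climbs from 39.2 and 40.7 FPKM with DMSO to 70.3 and 69.6 with AZD6738+IR, while RPS27 and RPL22L1 are lowest there.

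Members with longer coding sequences fell more. The coding length of a gene was that of the longest coding sequence annotated for its symbol in GENCODE 29, without the stop codon. This need not be the transcript that was measured. For the 59 genes the coding length ran from 153 to 1281 bases. Across the 59 genes it had a Spearman correlation of -0.52 and a Pearson r of -0.48 with the log2 fold change of AZD6738+IR against DMSO, and the Spearman correlation was -0.34 for IR against DMSO and -0.06 for AZD6738 against DMSO. Without the 4 paralogs the Spearman correlation was -0.56 and r -0.65 (n = 55). The genes share libraries and are not independent replicates, so these values are a description. The Spearman correlation was -0.57 within the large and -0.43 within the small subunit.

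With the 55 genes split in 3 by length, the median change with AZD6738+IR was -0.67 in the shortest 18, -0.84 in the middle 19 and -1.12 in the longest 18. The longest set spans 582 to 1281 bases and holds RPL3, RPL4 and RPL5, and the shortest spans 153 to 408 bases and holds RPL38 and RPL39. Other loci of 111 to 1281 coding bases had a Spearman correlation of 0.01 (n = 3552), and the 197 of them that averaged 100 FPKM or more had one of -0.13. Mean level was hardly related to the change among the 59 genes (Spearman correlation 0.04).

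**Figure D5:**
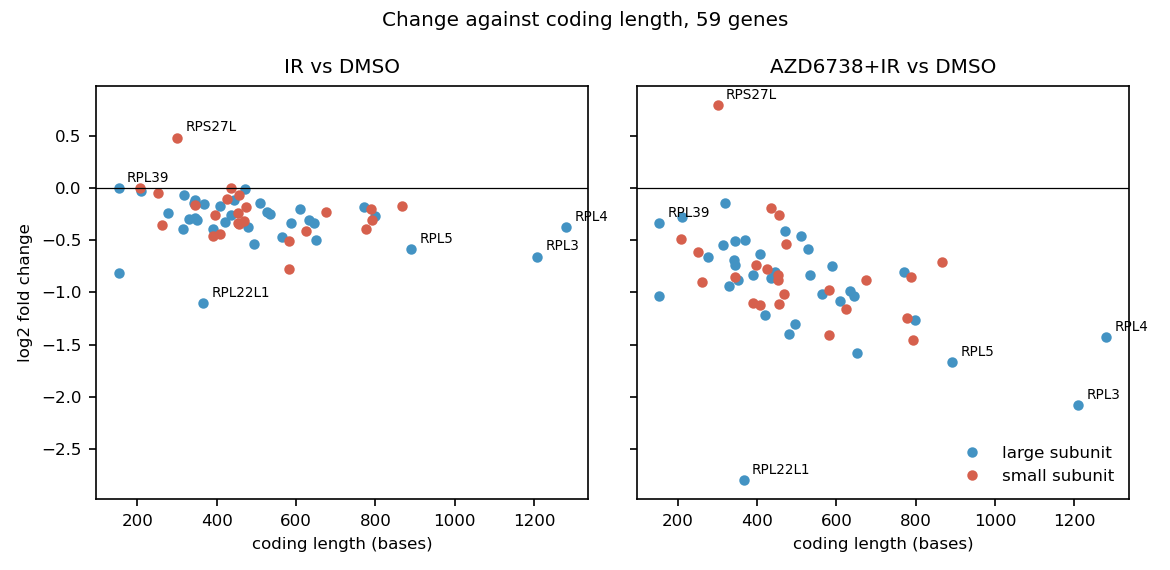
Coding length in bases against the log2 fold change of the 59 genes, for IR (left) and AZD6738+IR (right) against DMSO, large subunit in blue and small in red. With AZD6738+IR the points run downward to RPL3, RPL4 and RPL5 at the right (Spearman correlation -0.52), and RPL22L1 and RPS27L lie off this band.

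Ribosomal proteins with other symbols and most genes that build the ribosome fell too. Of 5 such protein symbols 2 were tested. After IR 1 of them fell and 1 was not called, and both fell with AZD6738+IR, where 38.0% and 45.6% of all loci were called lower. With 2 genes these counts say little beside those shares. GNB2L1, also called RACK1, a signalling scaffold on the small subunit, was at 2608 and 2622 FPKM with DMSO, 2531 and 2563 with AZD6738, 1845 and 1863 after IR and 1017 and 953 with AZD6738+IR. Its AZD6738+IR libraries were the lowest and its IR libraries came next, with changes of -0.50 ± 0.04 and -1.41 ± 0.04 (limma adjusted p = 1.8e-04 and 2.4e-06). FAU, which encodes RPS30 fused to a ubiquitin-like protein, changed by -0.39 ± 0.03 with AZD6738+IR.

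Of 55 genes of RNA polymerase I and rRNA processing 38 fell and 6 rose after IR, and 49 fell and 2 rose with AZD6738+IR (median -0.77, against -0.16 over all loci). Of all loci 38.0% were called lower after IR and 45.6% with AZD6738+IR. NPM1, the nucleolar chaperone, was at 1482 and 1586 FPKM with DMSO, 1468 and 1374 with AZD6738, 702 and 669 after IR and 377 and 420.1 with AZD6738+IR. Both irradiated groups lay below the rest without overlap, with changes of -1.16 and -1.94 (limma adjusted p = 6.7e-05 and 4.5e-06). NOB1, the nuclease that finishes 18S rRNA, changed by -1.48 and -2.02, WDR12, of the PeBoW complex in large subunit assembly, by -0.96 and -1.86, and the nucleolar protein LYAR by -0.61 and -1.34, all 6 changes being called.

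Of 28 other mRNAs known to begin with a TOP motif 18 fell after IR and 27 with AZD6738+IR, where 38.0% and 45.6% of all loci were called lower. None rose, and the median with AZD6738+IR was -1.26, against -0.16 over all loci. The translation initiation factor EIF4B was at 272 and 269 FPKM with DMSO, 239 and 248 with AZD6738, 167 and 163 after IR and 65.9 and 63.8 with AZD6738+IR. It formed 3 separate levels, like most members, with a change of -2.05 ± 0.04 with AZD6738+IR (limma adjusted p = 6.3e-07). HNRNPA1, a splicing factor, changed by -1.77 and VIM, the intermediate filament vimentin, by -1.75. Of 8 noncoding snoRNA host genes, many of whose spliced RNAs also begin with TOP motifs, 7 fell after IR and 7 with AZD6738+IR, against the same 38.0% and 45.6%. SNHG7 changed by -1.73 and -2.10 and SNHG6 by -0.87 and -1.37, while SNHG16 changed by -1.31 with AZD6738+IR. ZFAS1 was at 278 and 270.5 FPKM with DMSO, 278 and 265 with AZD6738, 119 and 121 after IR and 128 and 135 with AZD6738+IR, so that its IR libraries were the lowest. Its change was -1.18 with IR and -1.05 with AZD6738+IR.

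Of 8 genes of the p53 and ribosomal protein checkpoint 2 rose and 4 fell after IR, and 3 rose and 4 fell with AZD6738+IR. With so few genes these shares are close to those of all loci, 23.7% higher and 38.0% lower after IR and 27.1% and 45.6% with AZD6738+IR. MDM2, the ligase that RPL5 and RPL11 bind, was at 42.1 and 42.9 FPKM with DMSO, 51.6 and 51.3 with AZD6738, 99.5 and 100.3 after IR and 126 and 129.5 with AZD6738+IR. Its libraries rose in the same order as those of RPS27L, with 1.21 ± 0.03 and 1.57 ± 0.03 (limma adjusted p = 1.2e-05 and 9.3e-07). CDKN1A, the p53 target that encodes the cell cycle inhibitor p21, changed by 2.46 and 3.06. GLTSCR2, a nucleolar protein also called NOP53, changed by -1.29 with AZD6738+IR.

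Of 18 genes of mTORC1 and of the control of TOP translation 5 fell and 3 rose after IR, and 10 fell and 4 rose with AZD6738+IR. These shares are under those of all loci after IR (38.0% lower and 23.7% higher) and near them with AZD6738+IR (45.6% and 27.1%). EIF4EBP1, the repressor of eIF4E that mTORC1 phosphorylates, was at 228 and 193 FPKM with DMSO, 242 and 222 with AZD6738, 40.7 and 34.8 after IR and 20.8 and 19.0 with AZD6738+IR. Its irradiated libraries lay far below the rest, with -2.45 ± 0.11 and -3.33 ± 0.11 (limma adjusted p = 3.2e-05 and 3.6e-06). DEPTOR, an inhibitor within mTOR complexes, changed by -1.10 and MLST8, a subunit of both complexes, by -1.08 with AZD6738+IR, and SESN1, a p53 target that restrains mTORC1, changed by 0.50 after IR. DEPTOR was a low row, at 2.15 and 2.32 FPKM with DMSO and 0.598 and 0.436 with AZD6738+IR. RPS6KB2, a kinase of the ribosomal protein RPS6 and no member here, changed by -0.66 with AZD6738+IR.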

How the data were processed

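Total RNA of MCF10A cells was sequenced as 75 bp paired ends from stranded, rRNA-depleted libraries, per the labels' protocols. The submitters' processing notes name the build hg38, StringTie 1.3.4d, HISAT2 2.0.4 and FastQC without their roles. A single filtered table was deposited by the authors, with 14944 rows of which 9762 had a symbol, and its header names no unit. Its values were taken as FPKM because StringTie writes FPKM and TPM, the deposited column totals differ and values are fractional. TPM would differ by 1 factor per library. The authors' deposited p-value columns were not used. Columns named Control were taken as the DMSO group, and letters A and B are not tied to the replicate numbers. There were 0 value columns of no sample.

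Of several rows of a symbol the one with the highest mean was kept, which left 14645 loci. The symbol rule matched 80 rows, of which 8 S6 kinases and 13 symbols ending in P and a number were set aside (12 pseudogenes and RPS19BP1). Levels were tested on log2(FPKM + 1) with limma 3.58.1 (R 4.3.3), a scale that understates changes of low genes, in 1 fit of all 8 libraries with an intensity trend, for the 12809 loci that averaged 1 FPKM or more (4 residual and 1.79 prior degrees of freedom). The fit was tested on simulated data in which few loci changed and the noise was independent, so that test does not cover changes as broad as those here. All 59 members passed the filter. A call is an adjusted p under 0.05. The members and gene lists were chosen with earlier results of these data known. Genes named are the 6 called members with the largest rise and fall per comparison, the 5 most abundant, the paralogs, preset members such as RPL5, RPL11, RPS3 and RPS19, and up to 4 called genes per list. RPS26, RPL21, RPL24, RPL36, RPL38, RPS7, RPL23 and RPS15 were also described after their values were seen. Some genes that the rule names are not reported here. Coding lengths came from GENCODE 29, as the longest coding sequence of each symbol. Alternatives were another pseudocount, other filters, 3 scalings, only the groups compared, no trend, summed rows, a block and leaving out each library.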

Additional observations from a re-analysis of the deposited data

Results flagged for a closer look

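The change of ribosomal protein genes with AZD6738+IR differed from the sum of the changes with AZD6738 and with IR by a test of the difference itself, the limma interaction, in 46 of 59 genes, all lower, against 22.4% of all loci called lower. Of the 468 other loci that averaged 100 FPKM or more 41.7% were called lower, against 43 of the 50 members that abundant. The 6 largest interactions of the members on the log2 scale were -2.27 for RPL22L1, -1.41 for RPL3, -1.14 for RPS3A, -1.11 for RPL5, -1.09 for RPL10A and -1.04 for RPL4. In RPL22L1 the DMSO libraries stood at 87.6 and 44.4 FPKM, so its interaction has the widest error of these, ± 0.44. With 2 libraries per group no single library could be tested as an outlier.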

How the results depend on the processing

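Leaving out each library in turn gave a median log2 fold change of the members of -0.31 to -0.23 for IR against DMSO. For AZD6738+IR it was -0.89 to -0.82 against DMSO, -0.60 to -0.58 against IR and -0.83 to -0.81 against AZD6738. For the interaction it was -0.59 to -0.53. The medians over all loci were -0.10 to -0.09, -0.18 to -0.14, -0.08 to -0.05, -0.17 to -0.13 and -0.08 to -0.05 in the same order. For AZD6738 against DMSO the members called were 0 to 1, the 1 being RPS26 without either AZD6738+IR library. With the library letter as a replicate block the counts were 45, 59, 52, 54 and 45 in the same order and 0 for AZD6738. The log2 differences of library B from library A, taken within each group over all loci tested, correlated between groups at -0.05 to 0.16. Such low values cannot settle whether the letters pair the libraries.

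Other scalings brought the median of the members nearer to 0, to -0.22 to -0.19 with IR, to -0.77 to -0.59 with AZD6738+IR against DMSO, to -0.56 to -0.38 against IR, to -0.75 to -0.57 against AZD6738 and to -0.54 to -0.37 for the interaction. Quantile normalization made fewest calls among the members, 34, 51, 44, 51 and 34, of which 33, 48, 42, 47 and 33 were lower. Over all 12809 loci it called 7762, 9209, 6644, 9122 and 4525. This scaling reversed RPS19 (0.22, 0.15 and 0.24 with AZD6738+IR against DMSO, IR and AZD6738), RPL38 (0.12, 0.087 and 0.16) and RPL36AL (0.10 against DMSO). The cause was not tested. Of the calls made, 27 of 43 with IR and 48 of 58 with AZD6738+IR against DMSO were kept under every one of the 18 alternatives. In the interaction 31 of 46 were kept under each alternative tried, which leaves out the fit of only the groups compared. Depth is unknown and limits the rows with low FPKM, such as RPS9, RPS28 and RPL39L.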

Other observations

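Libraries of a group agreed closely for most ribosomal protein genes. The median difference between libraries A and B was 4.18% of their mean with DMSO, 1.56% with AZD6738, 2.75% after IR and 4.87% with AZD6738+IR. A difference of over 25% was seen in RPL21 and RPL22L1 with DMSO, in RPL21 and RPL39 with AZD6738, in RPS9 after IR, and in RPL21, RPL22L1, RPS26 and RPS28 with AZD6738+IR.

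Of the 12 rows set aside as pseudogenes, RPL13AP5 was the most abundant, at 778 and 797 FPKM with DMSO, 664 and 671 after IR and 368 and 397 with AZD6738+IR, and its parent gene RPL13A went from 1638 and 1647 to 1440.4 and 1421 and to 791 and 753. RPS18P9 stood at 8.25 FPKM in AZD6738+IR library A and at 1.56 to 2.12 in the other 7 libraries.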
